A study of Mus musculus with 2 samples.

Results

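The 10 genes Fos, Fosb, Jun, Junb, Jund, Atf3, Egr1, Ier2, Ier3 and Dusp1 are described here, out of the 16819 gene symbols in the deposited matrix of 2668 immune cells from mouse dorsal root ganglia (DRG). They were taken as a fixed list of AP-1 and Egr immediate early genes and read one by one across cell types. The list was chosen with earlier results of these data known. The cells were CD45+ DRG cells of naive wild-type BALB/cAnNRj mice, 3 male and 3 female, pooled in 1 lane of the 10x 3′ v3 assay. Samples were marked with 6 hashtag antibodies, 3 male and 3 female, and each hashtag is taken here as 1 mouse. The labels do not state that outright, and every SD and test over mice rests on it. Before sorting, the mice were perfused with PBS, about 40 ganglia were pooled per preparation, and the tissue was digested with collagenase, dispase and DNase at 37 C for 40 min. Every cell went through this digestion and none was measured without it. The part of digestion in the levels below therefore cannot be told apart from the level in the tissue. The study itself reported signs of expression induced by ex vivo digestion, above all in macrophages. It named Fos, Jun, Atf3 and Rhob among such genes and left them out between differential expression and gene ontology analysis. The deposited matrix held the 3 male mice with 481, 772 and 1415 cells, and its cells were also in the larger deposited matrix of 4395 barcodes, from which 1073 cells of the 3 female mice were taken.

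Immediate early genes are transcribed within minutes of a signal, before new protein is made. Fos and Jun proteins pair to form the transcription factor AP-1, and Atf3 pairs with Jun proteins through the same kind of leucine zipper. Egr1 is a zinc finger factor induced through MAP kinases and serum response factor, Ier2 and Ier3 are small proteins induced in the same early wave, and Dusp1 is a phosphatase that removes phosphate from p38 and JNK and so closes the loop. In macrophages this programme is switched on by pathogen products, cytokines, adhesion and handling of the cells.

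The genes lie on 7 chromosomes (GRCm38, GENCODE M21), with Junb, Jund and Ier2 all on chromosome 8. Among them are Fos (ENSMUSG00000021250, chr12:85473890-85477273, plus strand), Jun (ENSMUSG00000052684, chr4:95049034-95052222, minus strand) and Junb (ENSMUSG00000052837, chr8:84974484-84978718, minus strand). RefSeq promoter windows, the 250 bases before the start on GRCm38.p6, were taken for 8 of the 10 genes. Those of Egr1 and Ier2 were not searched, so the motif counts below do not cover these genes. On both strands, the windows were searched for the cAMP response element TGACGTCA, its shorter core TGACG (which overlaps the full element), the AP-1 site TGANTCA, the Egr site GCGNGGGCG and the CArG box of serum response factor. The core TGACG was in 5 of 8 windows, against 17.8% of 32851 promoters of the same length. The full element was in 1 (Dusp1; 1.55% of all promoters), the Egr site in 1 (Fosb; 4.7%), and the AP-1 site (6.75%) and the CArG box (1.47%) in 0 of these 8 windows. A match is a description of letters only, and other stretches of these genes were not searched. The RefSeq starts used here need not be the GENCODE gene bounds. The windows of Atf3 and Dusp1 lay within the GENCODE genes, and that of Jund ended ahead of the GENCODE start without reaching it. The 5 windows below belong to Fos, to Jun and Dusp1, the members that correlated best with it from cell to cell, to Junb, whose best partner was Dusp1, and to Fosb, which had the lowest mean correlation. The window of Jun held none of these motifs, and variants of their letters were not searched. Capitals mark TGACG on either strand, with TGACGTCA at -143 to -136 in Dusp1 and the Egr site at -50 to -42 in Fosb.
Fos, chr12:85473640-85473889, plus strand: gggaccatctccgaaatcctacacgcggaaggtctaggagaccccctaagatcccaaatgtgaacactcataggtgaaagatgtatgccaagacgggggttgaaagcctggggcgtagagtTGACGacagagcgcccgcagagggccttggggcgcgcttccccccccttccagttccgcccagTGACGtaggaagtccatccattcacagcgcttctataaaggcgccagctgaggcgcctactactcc
Jun, chr4:95052223-95052472, minus strand: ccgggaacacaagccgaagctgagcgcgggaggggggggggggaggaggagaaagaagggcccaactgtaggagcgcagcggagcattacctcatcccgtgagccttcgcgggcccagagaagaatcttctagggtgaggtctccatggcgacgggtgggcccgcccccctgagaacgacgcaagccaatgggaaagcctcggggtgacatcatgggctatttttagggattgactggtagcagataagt
Dusp1, chr17:26508473-26508722, minus strand: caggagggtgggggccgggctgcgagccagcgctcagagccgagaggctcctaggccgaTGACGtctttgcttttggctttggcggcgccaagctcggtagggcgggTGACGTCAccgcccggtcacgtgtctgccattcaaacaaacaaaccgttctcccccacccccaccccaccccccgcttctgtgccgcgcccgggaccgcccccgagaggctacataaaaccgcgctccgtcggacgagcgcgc
Junb, chr8:84978749-84978998, minus strand: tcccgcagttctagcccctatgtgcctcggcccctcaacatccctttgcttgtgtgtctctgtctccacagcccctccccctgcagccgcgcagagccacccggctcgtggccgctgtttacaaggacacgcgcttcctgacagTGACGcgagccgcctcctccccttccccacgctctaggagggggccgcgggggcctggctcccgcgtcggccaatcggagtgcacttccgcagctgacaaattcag
Fosb, chr7:19310046-19310295, minus strand: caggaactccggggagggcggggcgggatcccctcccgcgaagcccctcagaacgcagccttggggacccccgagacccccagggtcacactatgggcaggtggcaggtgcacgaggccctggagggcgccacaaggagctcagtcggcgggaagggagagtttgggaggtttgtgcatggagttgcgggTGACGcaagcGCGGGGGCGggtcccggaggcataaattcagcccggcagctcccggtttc

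Cells were grouped by markers that hold none of the 10 genes. Macrophages had C1qa, C1qb and C1qc at 0.5% of UMIs or more, neutrophils had S100a8 and S100a9 at 5% or more, B cells had at least 4 UMIs of Cd79a and Cd79b, and T cells had at least 2 UMIs of Cd3d, Cd3e and Cd3g. Alone, these rules were met by 1442 macrophages, 272 neutrophils, 161 B cells and 76 T cells of the male mice, with median UMIs per cell of 8581.5, 3635.5, 3410 and 4757.5. A further 283 cells met both the neutrophil and the T rule. They carried Ly6g at a median of 25 UMIs, against 1 in the other neutrophils, and only 8 of them had a UMI of Cd3e or Cd3g. They are given as neutrophils with Cd3 UMIs and stay out of the main tests. The folds over neutrophils therefore describe the 272 cells with less Ly6g. No rule was met by 390 cells, and 44 met other combinations. Macrophage markers that no rule used (Csf1r, Cx3cr1 and Adgre1) summed to 1821 to 2092 CPM (UMIs of a gene scaled to a fixed total per sum) in macrophages and to at most 76.3 CPM in neutrophils, B cells and T cells. Ptprc, which encodes CD45, had a UMI in 83.5% of cells. The C1q genes stood at 0.878% ± 0.132, 1.14% ± 0.290 and 1.33% ± 0.863 (SD, n = 3) of the macrophage level in neutrophils, B cells and T cells. The grouping kept cells with more C1q out of these types, so that share is capped by the rule and is not a measure of free RNA.

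Macrophages devoted a larger share of their UMIs to the 10 genes than neutrophils, B cells or T cells did. Together the genes made up 1.45%, 2.04% and 1.35% of macrophage UMIs in mouse 1, 2 and 3 (1.61% ± 0.376, SD, n = 3). The share was 0.420% ± 0.0590 in neutrophils, 0.395% ± 0.0870 in B cells, 0.491% ± 0.148 in T cells and 0.199% ± 0.0594 in neutrophils with Cd3 UMIs. Macrophages lay above these groups in each mouse, and neutrophils, B cells and T cells overlapped one another. The cells that met no rule reached 0.792% ± 0.130. The 44 cells of other combinations reached 1.26% ± 0.601, which in mouse 3 (1.45%) exceeded the cells that met the macrophage rule alone. Most of these 44 met the macrophage rule as well, 34 of them together with the T rule, and their mouse 1 value rests on 2 cells. Neither mixture was divided further. Mouse 2 had the highest macrophage share, and it is named below wherever it decides a value.

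The question of the main comparison was which of the 10 genes differed between macrophages and neutrophils, B cells or T cells. Monocytes and dendritic cells had no rule and were not compared. Markers of monocytes (Plac8 and Ly6c2, 1024 to 1966 CPM) and dendritic cells (Xcr1, Flt3 and Cd209a, 321 to 550 CPM) were highest in the cells that met no rule. UMIs were summed per mouse and type, scaled by trimmed means (TMM) and compared in edgeR's quasi-likelihood framework, with p-values adjusted by Benjamini and Hochberg over all 5513 genes tested. Against neutrophils, 8 of the 10 genes were higher in macrophages and 0 lower, where 59.9% of all genes tested were called and 32.2% were called higher in macrophages. With neutrophils with Cd3 UMIs counted as neutrophils, a grouping chosen after seeing the data, 9 were called higher (all but Ier2). In that setting 2384 of 6738 genes tested were called higher in macrophages. Against B cells all 10 were higher (58.2% of all genes called, 30.5% higher), and against T cells all 10 were higher (44.9% called, 24.5% higher). The median log2 fold of the 10 was 2.14, 3.84 and 3.08 in that order, and that of all genes tested was 0.13, 0.00 and -0.03. Fewer transcribing cells and less RNA per cell cannot be told apart in such sums.

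**Figure D1:**
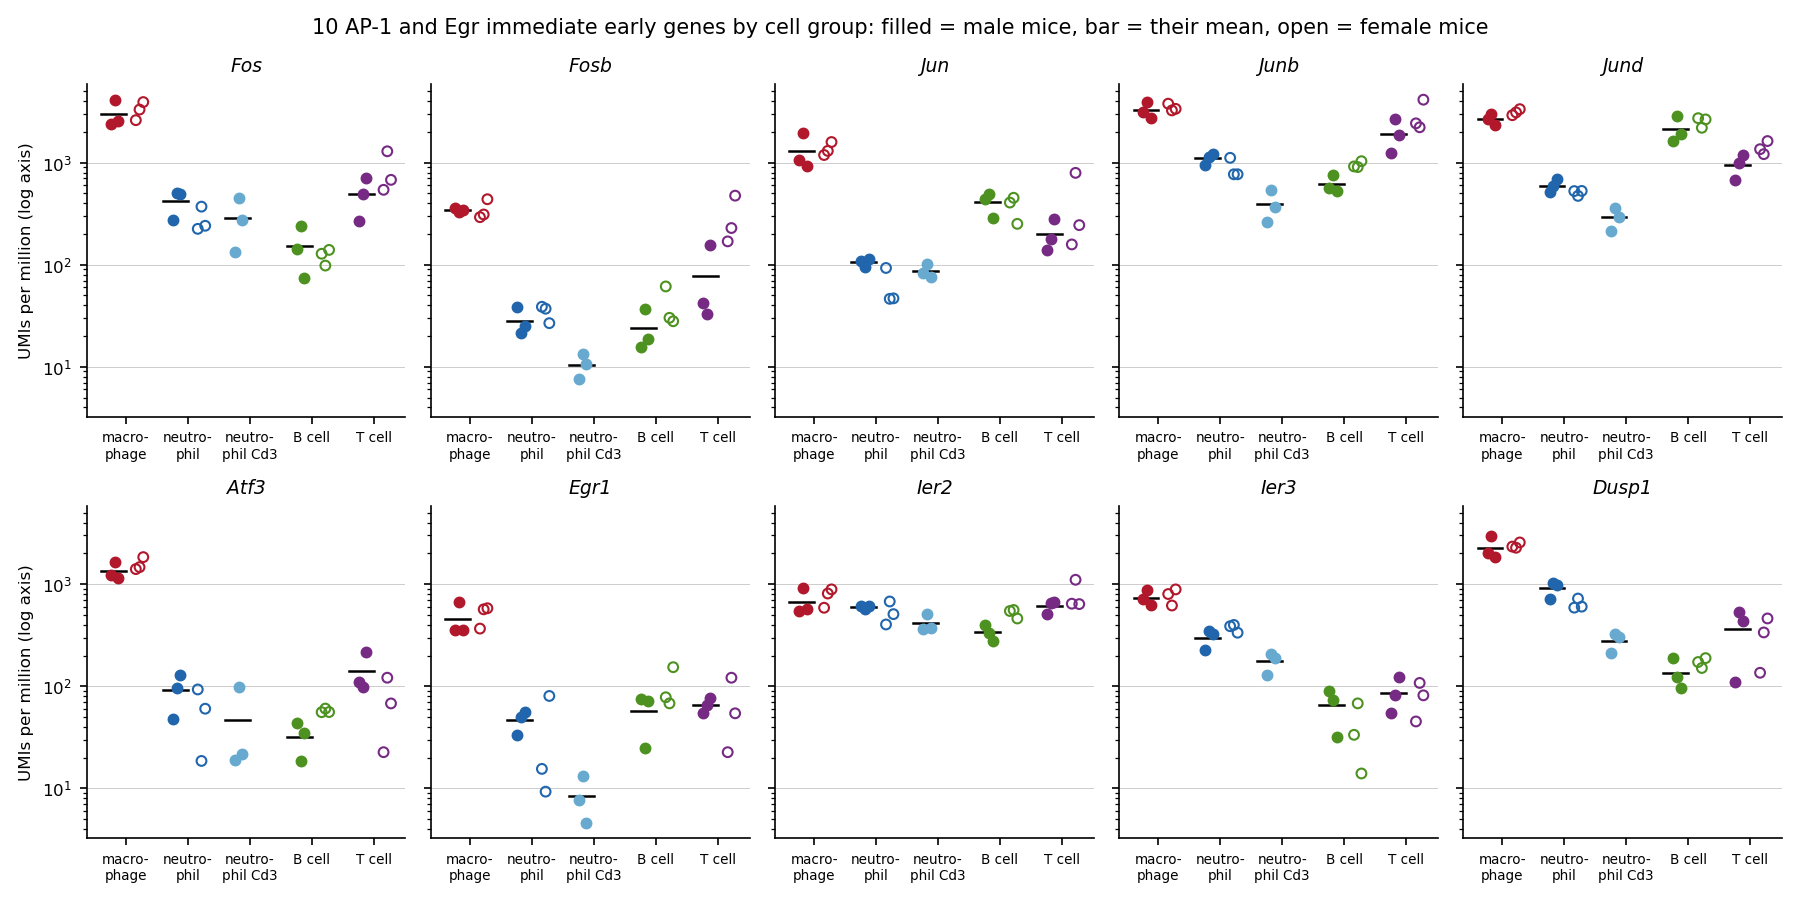
CPM (log axis) of each of the 10 genes in sums per mouse, by cell group; filled points are the 3 male mice, the bar is their mean, and open points are the 3 female mice, which were not summed for neutrophils with Cd3 UMIs. Macrophage points lie above all others for Fos, Jun, Atf3, Egr1, Ier3 and Dusp1, while Ier2 covers the same range in macrophages, neutrophils and T cells, and Jund in B cells comes close to macrophages.

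Fos, the partner of Jun in the classical AP-1 dimer, was at 2386, 4149 and 2535 CPM in the macrophages of mouse 1, 2 and 3. It was at 277, 505 and 496 CPM in neutrophils, at 142, 241 and 74.4 CPM in B cells, and at 266, 489 and 716 CPM in T cells. No value of another type reached the lowest macrophage value, neutrophils and T cells overlapped, and B cells were lowest in each mouse. The log2 fold of macrophages was 2.47 (SE 0.471, adjusted p = 0.00156) over neutrophils, 5.02 (SE 0.561, adjusted p = 5.01e-05) over B cells and 3.05 (SE 0.506, adjusted p = 0.00105) over T cells. Neutrophils with Cd3 UMIs held 132 to 451 CPM, a range that overlapped the other neutrophils. In cells thinned to 2000 UMIs, Fos had a UMI in 83.9% ± 5.04 of macrophages, 57.2% ± 4.33 of neutrophils, 20.2% ± 9.67 of B cells and 43.3% ± 8.66 of T cells (SD, n = 3); without thinning these were 96.3%, 72.6%, 34.0% and 58.7%.

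Fosb encodes another Fos protein, and its splice forms are not separated in these counts. Its levels were 360, 327 and 348 CPM in the macrophages of the male mice, an SD of 17.0 around a mean of 345, while the female mice spread more widely with an SD of 79.5 around 347. Neutrophils held 21.3 to 38.2 CPM and B cells 15.8 to 37.1 CPM, and these ranges overlapped far below macrophages. The B cell values rest on 4, 6 and 7 UMIs. T cells held 42.4, 32.6 and 157 CPM, which rest on 7, 2 and 33 UMIs. Macrophages were higher by a log2 fold of 3.23 (SE 0.306, adjusted p = 8.26e-09) over neutrophils, 4.57 (SE 0.362, adjusted p = 6.97e-10) over B cells and 2.32 (SE 0.315, adjusted p = 3.30e-06) over T cells. In the female mice the T cell fold was 0.68 (SE 0.264, adjusted p = 0.0370), with 169, 229 and 475 CPM in T cells against 293, 311 and 438 CPM in macrophages, so that the groups overlapped there. Those T cell sums come from 17 or 18 cells a mouse.

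Jun, the AP-1 subunit that JNK phosphorylates, was at 1067, 1944 and 932 CPM in macrophages. In the male mice B cells came next with 445, 488 and 290 CPM, then T cells with 139, 179 and 281 CPM and neutrophils with 110, 95.9 and 115 CPM. This order set Jun apart from Fos, for which B cells were lowest: B cells held 32.6% ± 8.45 of the macrophage level of Jun but 4.90% ± 1.70 of that of Fos (SD, n = 3). The folds of macrophages were 3.24 over neutrophils (SE 0.339, adjusted p = 1.48e-06), 2.32 over B cells (SE 0.319, adjusted p = 2.62e-05) and 3.11 over T cells (SE 0.362, adjusted p = 8.33e-06) on the log2 scale. Only macrophages exceeded 500 CPM among the named types of the male mice. Female T cells held 158, 794 and 244 CPM of Jun and female B cells 407, 453 and 251 CPM. Those ranges overlapped, and T cells lay above B cells in female mouse 2.

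Junb, which can replace Jun in AP-1 and often opposes it, was broadly present. Macrophages held 3157, 3937 and 2723 CPM, and T cells 1241, 2672 and 1856 CPM, so that the highest T cell value lay just under the lowest macrophage value. Neutrophils (951 to 1205 CPM) and B cells (531 to 760 CPM) of the male mice were lower and did not overlap with each other. In the female mice these 2 types overlapped, at 1116, 769 and 770 CPM in neutrophils and 919, 906 and 1034 CPM in B cells. Macrophages were higher by a log2 fold of 1.22 over neutrophils (SE 0.239, adjusted p = 4.45e-04), 3.02 over B cells (SE 0.260, adjusted p = 9.83e-08) and 1.25 over T cells (SE 0.244, adjusted p = 6.91e-04). The female T cells, at 2428, 2222 and 4140 CPM, overlapped the female macrophages at 3784, 3252 and 3368 CPM, with a log2 fold of 0.65 (SE 0.238, adjusted p = 0.0272).

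Jund, the Jun protein that resting cells hold most steadily, was at 2689, 3015 and 2362 CPM in macrophages and at 1616, 2847 and 1907 CPM in B cells, and these ranges overlapped. T cells held 678 to 1188 CPM and neutrophils 514 to 686 CPM, overlapping narrowly. The smallest fold of Jund was the one over B cells, 0.94 on the log2 scale (SE 0.232, adjusted p = 0.00257). Scaled by total UMIs instead, an alternative chosen after seeing the data, it was 0.33 with an adjusted p of 0.156, so the call depends on the scaling. Over neutrophils and T cells the log2 folds were 1.81 (SE 0.239, adjusted p = 7.41e-06) and 1.94 (SE 0.248, adjusted p = 9.57e-06).

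Atf3, a stress-induced factor of the ATF and CREB family that restrains inflammatory genes in macrophages, separated macrophages from the other types more widely than any other of the 10 genes against neutrophils, B cells and T cells. It was at 1229, 1652 and 1154 CPM in macrophages. Neutrophils held 47.8, 95.9 and 130 CPM, B cells 43.4, 18.5 and 34.5 CPM, and T cells 109, 97.7 and 215 CPM. The B cell values rest on 11, 3 and 13 UMIs and the T cell values on 18, 6 and 45. The highest of these CPM values lay far below the lowest macrophage value. The log2 folds were 3.44 (SE 0.327, adjusted p = 2.69e-07) over neutrophils, 5.90 (SE 0.411, adjusted p = 9.25e-09) over B cells and 3.58 (SE 0.360, adjusted p = 1.01e-06) over T cells.

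Egr1 (ENSMUSG00000038418, chromosome 18) was at 357, 663 and 358 CPM in macrophages, with mouse 2 highest as for Fos and Jun. Neutrophils held 33.5 to 55.8 CPM, B cells 24.7 to 74.9 CPM and T cells 54.5 to 76.3 CPM, and those 3 ranges overlapped with their neighbours. The B cell values rest on 19, 4 and 27 UMIs and the T cell values on 9, 4 and 16. Macrophages were higher by a log2 fold of 2.89 over neutrophils (SE 0.313, adjusted p = 2.85e-07), 3.49 over B cells (SE 0.334, adjusted p = 6.88e-08) and 3.24 over T cells (SE 0.377, adjusted p = 1.40e-06). In neutrophils with Cd3 UMIs, Egr1 was at 4.55 to 13.3 CPM, below each value of the other neutrophils.

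Ier2, a nuclear protein of the early wave, was the gene that least distinguished the types. Macrophages held 540, 913 and 566 CPM, neutrophils 605, 569 and 612 CPM, and T cells 508, 652 and 673 CPM. These ranges overlapped, and macrophages were above neutrophils in 1 of 3 mice and above T cells in 2 of 3. In the male mice B cells, at 398, 334 and 279 CPM, lay below all of them, with a log2 fold of 1.61 (SE 0.215, adjusted p = 7.72e-07). The fold over neutrophils was -0.18 (SE 0.199, adjusted p = 0.457) and turned to 0.20 when sums were scaled by total UMIs, where the adjusted p was 0.357. Over T cells the fold of 0.60 (SE 0.214, adjusted p = 0.0258) passed the threshold in 6 of 11 alternatives, and its adjusted p ran from 9.46e-04 to 0.592 over them. The call over T cells was lost without mouse 1 (adjusted p = 0.0567), without mouse 2 (adjusted p = 0.262) and under scaling by total UMIs (log2 fold 0.14, adjusted p = 0.592). Female B cells, at 546, 559 and 461 CPM, overlapped female neutrophils at 403, 677 and 509 CPM.

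Ier3, which is induced by NF-kB and limits apoptosis, split the myeloid from the lymphoid cells. It was at 714, 875 and 624 CPM in macrophages and at 227, 345 and 327 CPM in neutrophils, but at 90.7, 74.1 and 31.9 CPM in B cells and 54.5, 81.4 and 124 CPM in T cells. The lymphoid ranges overlapped each other and not the neutrophils. Macrophages were higher by a log2 fold of 0.94 over neutrophils (SE 0.244, adjusted p = 0.00256), 4.18 over B cells (SE 0.319, adjusted p = 1.10e-09) and 3.47 over T cells (SE 0.331, adjusted p = 4.73e-08). Without mouse 2 the fold over neutrophils was 0.83 with an adjusted p of 0.0587.

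Dusp1, the phosphatase of p38 and JNK, was at 2008, 2952 and 1859 CPM in macrophages and at 722, 1016 and 985 CPM in neutrophils. The groups did not overlap, yet the log2 fold of 0.97 (SE 0.418, adjusted p = 0.0731) missed the threshold. It passed in 5 of 11 alternatives, among them leaving out mouse 1 (0.87, adjusted p = 0.00130) and taking the female mice (1.60, adjusted p = 1.53e-06). Counting neutrophils with Cd3 UMIs as neutrophils was another of these. The adjusted p ran from 1.53e-06 to 0.338 over all 11. Against the lymphoid cells the difference was wide: B cells held 189, 124 and 95.6 CPM and T cells 109, 538 and 439 CPM. The log2 folds there were 4.68 (SE 0.521, adjusted p = 4.17e-05) and 3.19 (SE 0.495, adjusted p = 6.21e-04).

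**Figure D2:**
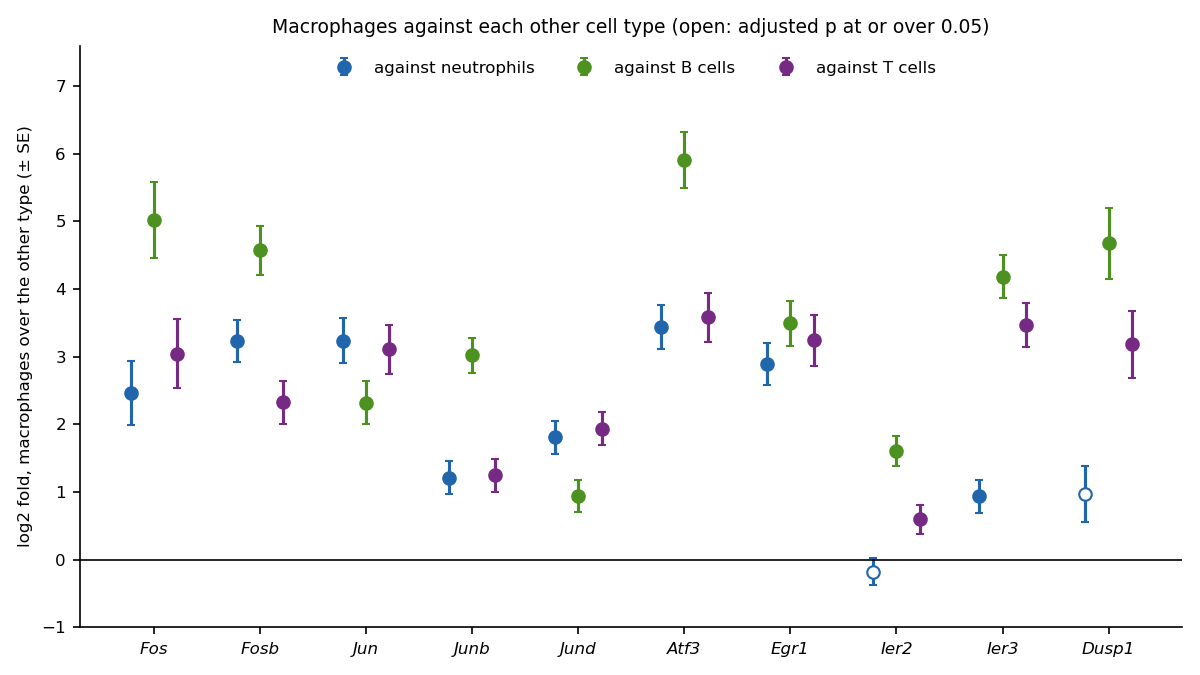
Log2 fold of macrophages over neutrophils (blue), B cells (green) and T cells (purple) for each gene, with its standard error, from sums of 3 male mice; open points did not pass an adjusted p of 0.05. Atf3 over B cells is highest at 5.90, and the open points are Ier2 and Dusp1 over neutrophils at -0.18 and 0.97.

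As a share of the macrophage level, the highest member was Ier2 in both neutrophils and T cells and Jund in B cells, and the lowest was Atf3 in all of them. Neutrophils held 94.1% ± 27.7 of the macrophage level of Ier2, 41.2% ± 10.5 of that of Ier3 and 41.1% ± 10.3 of that of Dusp1, but 6.99% ± 3.84 of that of Atf3 (SD, n = 3). B cells held 78.4% ± 17.3 of the level of Jund and 53.2% ± 18.9 of that of Ier2, against 2.55% ± 1.26 of that of Atf3. T cells held 94.8% ± 23.8 of the level of Ier2 and 58.4% ± 16.6 of that of Junb, against 11.1% ± 6.64 of that of Atf3. The lowest of these shares was that of Atf3 in B cells, and the next that of Fos in B cells at 4.90%.

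Scaling bore on the size of these folds. Scaled by total UMIs, the median log2 fold of all genes moved to 0.53 over neutrophils, -0.60 over B cells and -0.48 over T cells. The share of called genes that were higher in macrophages moved from 53.8% to 69.6%, from 52.4% to 29.1% and from 54.4% to 32.4% in that order. Of the 10 genes, 9 were then called higher in each comparison, with Ier2 over neutrophils, Jund over B cells and Ier2 over T cells the ones not called. Of all 5513 genes tested, 2499, 1118 and 940 were called higher in that setting against neutrophils, B cells and T cells. Fibroblast markers (Dcn, Lum and Col1a1) summed to 37.1 to 128 CPM in macrophages and to at most 14.3 CPM in the 3 other named types, and their part in the result was not tested.

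The same comparison in the female mice, on 597 macrophages, 66 neutrophils, 105 B cells and 52 T cells, gave calls for 9 of 10 genes over neutrophils (all but Ier2, 0.22, adjusted p = 0.434), 10 over B cells and 9 over T cells (all but Ier2, 0.34, adjusted p = 0.244). Of all 2818 genes tested there, 55.8%, 57.2% and 42.7% were called, and 32.0%, 29.5% and 24.5% were called higher in macrophages. Fos held a log2 fold of 3.26 over neutrophils, 5.24 over B cells and 2.38 over T cells, and Atf3 4.39, 5.27 and 4.92.

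Other genes of the programme were read from lists. Of all 5513 genes tested, 32.2%, 30.5% and 24.5% were called higher in macrophages against neutrophils, B cells and T cells. In that order, 1527, 1526 and 1128 genes were called lower. Of 12 further AP-1 genes, 8 could be tested; 3 were higher in macrophages and 3 lower against neutrophils, 7 higher and 1 lower against B cells, and 4 higher and 0 lower against T cells. Batf3, a partner of Jun known for its part in dendritic cells, had 605 UMIs in macrophages and 0 in neutrophils, at least 25.5-fold higher against a floor of 3 UMIs over the group. The single UMI of Batf3 in B cells and in T cells gave ratios of 37.0 (95% counting interval 6.61 to 1463) and 20.4 (3.64 to 806). Fosl2 had 1587 UMIs in macrophages and 0 in B cells (at least 33.0-fold higher). Jdp2, a repressor of AP-1, was higher over B cells by 5.46 (SE 0.413, adjusted p = 2.29e-10) and over T cells by 4.01 (SE 0.412, adjusted p = 5.10e-08). Maff was higher over neutrophils by 2.52 (SE 0.411, adjusted p = 1.07e-05) and Batf by 1.34 (SE 0.305, adjusted p = 5.50e-04), and Mafg over T cells by 2.00 (SE 0.359, adjusted p = 6.60e-05). The 3 genes lower against neutrophils were Mafg (-1.19, SE 0.179, adjusted p = 3.62e-06), Atf4 (-0.58, SE 0.194, adjusted p = 0.0128) and Fosl2 (-0.56, SE 0.222, adjusted p = 0.0361).

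Of 23 further immediate early genes, 19 could be tested, and 10, 16 and 14 were higher in macrophages against neutrophils, B cells and T cells, with 1, 2 and 3 lower and a median log2 fold of 0.54, 1.88 and 1.14. Zfp36l1, which like Zfp36 shortens the life of mRNAs, was higher over neutrophils by 6.44 (SE 0.396, adjusted p = 2.96e-10), Klf4 by 3.17 (SE 0.341, adjusted p = 2.81e-08) and Socs3 by 3.06 (SE 0.280, adjusted p = 3.21e-09). Socs3, an inhibitor of cytokine signalling, was higher over B cells by 6.20 (SE 0.408, adjusted p = 1.93e-11) and Nfkbiz by 4.16 (SE 0.320, adjusted p = 2.39e-09). Rhob, a small GTPase, was higher over T cells by 3.81 (SE 0.398, adjusted p = 4.72e-07), and Zfp36 by 3.31 (SE 0.304, adjusted p = 2.52e-07). Dusp5, an ERK phosphatase, was called lower in macrophages in each comparison. Its log2 fold was -3.76 over T cells (SE 0.210, adjusted p = 5.51e-13), where T cells had 468 ± 93.5 CPM against 24.1 ± 2.75 CPM in macrophages. The other genes called lower were Dusp2 over B cells (-2.94, adjusted p = 1.30e-09) and T cells (-2.95, adjusted p = 4.11e-09), and Nr4a2 over T cells (-1.80, adjusted p = 2.41e-04). The signalling genes upstream (serum response factor, MAP kinases and CREB) had calls in both directions. So had all genes tested, of which 59.9%, 58.2% and 44.9% were called against neutrophils, B cells and T cells. Of the 12 of 20 that could be tested, 3 were higher and 5 lower against neutrophils, 6 and 3 against B cells, and 5 and 1 against T cells. Elk3, a cofactor of serum response factor, was higher over neutrophils by 4.02 (SE 0.420, adjusted p = 1.12e-08), and Mapk3, which encodes ERK1, was higher over B cells by 1.82 (SE 0.235, adjusted p = 4.52e-07) and over T cells by 1.90 (SE 0.294, adjusted p = 1.01e-05). Map2k4, a kinase that activates JNK, was lower in macrophages than in neutrophils at -1.16 (SE 0.341, adjusted p = 0.00522).

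The study found its main DRG macrophage populations by clustering and named them by CD163, a scavenger receptor. Fcrls, an Fc receptor-like protein, and Ccr2, a chemokine receptor, differed between those clusters and were probed by in situ hybridisation. The next comparison asked whether the 10 genes differed between macrophages divided by UMIs of Fcrls and Ccr2, which stand in for the clusters and need not hold the same cells. Macrophages with Fcrls and no Ccr2 UMI (Fcrls-only, 655 cells) were set against those with Ccr2 and no Fcrls UMI (Ccr2-only, 154 cells), summed per mouse. The median depth was 8466 and 8024.5 UMIs per cell. Cd163, which the rule did not use, was at 301, 222 and 254 CPM in Fcrls-only and at 95.2, 85.7 and 76.0 CPM in Ccr2-only macrophages, without overlap. The 10 genes took 1.59%, 2.45% and 1.55% of UMIs in Fcrls-only and 1.25%, 1.28% and 1.13% in Ccr2-only macrophages, with no overlap. The 567 macrophages with both genes lay between, at 1.38%, 1.72% and 1.21%, and overlapped both groups. In the test, 558 of 5879 genes were called (9.49%), 4.12% of all as higher in Fcrls-only macrophages, and of the 10 genes 3 were called higher (Fosb, Atf3 and Ier3) and 0 lower. With the mouse as a block, since both sums of a pair come from the same animal, 737 genes and 5 of the 10 were called (Fosb, Jun, Jund, Egr1 and Ier3).

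Fosb was at 446, 420 and 414 CPM in Fcrls-only and at 270, 146 and 223 CPM in Ccr2-only macrophages. The groups did not overlap, and the log2 fold was 0.93 (SE 0.162, adjusted p = 2.69e-04; blocked 0.93, adjusted p = 5.53e-06). Fosb was called in all 10 alternatives, with adjusted p from 1.22e-08 to 0.0242. In the female mice it was at 349, 364 and 503 CPM against 124, 140 and 301 CPM, a log2 fold of 1.05 (SE 0.249, adjusted p = 0.00938).

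Atf3 stood at 1432, 2083 and 1502 CPM in Fcrls-only and at 920, 683 and 983 CPM in Ccr2-only macrophages, again without overlap. Its log2 fold of 0.86 (SE 0.166, adjusted p = 0.00453) lost the call with the mouse as block (0.84, adjusted p = 0.253). Atf3 was called in 8 of 10 alternatives. In the female mice the fold was 1.35 (SE 0.305, adjusted p = 0.0559), with 1973, 1816 and 2297 CPM against 713, 438 and 1129 CPM.

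Ier3 was at 791, 1023 and 724 CPM in Fcrls-only and at 645, 585 and 499 CPM in Ccr2-only macrophages, with a log2 fold of 0.47 (SE 0.147, adjusted p = 0.0470; blocked 0.45, adjusted p = 0.00157). This call was lost when mouse 1, mouse 2 or mouse 3 was left out, with adjusted p of 0.104, 0.321 and 0.0778, and in the female mice (adjusted p = 0.421). Ier3 was called in only 3 of 10 alternatives.

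Fos and Jun had the largest folds of the 10 genes and did not pass the threshold in the main test. Fos was at 2762, 5522 and 3157 CPM in Fcrls-only and at 1592, 1499 and 1696 CPM in Ccr2-only macrophages, with a log2 fold of 1.16 (SE 0.314, adjusted p = 0.118; blocked 1.09, adjusted p = 0.249). Jun was at 1382, 2610 and 1181 CPM against 777, 782 and 590 CPM, with a log2 fold of 1.19 (SE 0.410, adjusted p = 0.208). Both genes were higher in Fcrls-only macrophages in 3 of 3 mice without overlap, and mouse 2 supplied the outlying value. Without mouse 2, both were called, Fos at 0.74 (adjusted p = 0.00268) and Jun at 0.84 (adjusted p = 0.00607). With the mouse as block, Jun was called at 1.10 (adjusted p = 0.00982). Each of the 2 genes was called in 2 of 10 alternatives. Over these the adjusted p ran from 1.50e-05 to 0.263 for Fos and from 0.00607 to 0.496 for Jun. The female mice gave a log2 fold of 1.22 for Fos (SE 0.425, adjusted p = 0.248) and 1.88 for Jun (SE 0.471, adjusted p = 0.122), both higher in 3 of 3 mice.

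Jund was at 2990, 3298 and 2603 CPM in Fcrls-only and at 2295, 2593 and 1883 CPM in Ccr2-only macrophages, so that the ranges nearly met although each mouse moved the same way. The log2 fold was 0.29 (SE 0.130, adjusted p = 0.203), and with the block the same fold had an adjusted p of 0.00542. In the female mice Jund was at 3508, 3522 and 3629 CPM against 1818, 2060 and 2273 CPM, and its log2 fold of 0.74 (SE 0.120, adjusted p = 2.38e-05) was called. Egr1, at 370, 884 and 397 CPM against 286, 383 and 321 CPM with overlap, was called with the block (0.55, adjusted p = 0.0327) and not without it (0.64, SE 0.464, adjusted p = 0.554). Ier2 (0.30, SE 0.298, adjusted p = 0.679) and Dusp1 (0.25, SE 0.258, adjusted p = 0.698) did not pass, although both were higher in 3 of 3 male mice; in the female mice Dusp1 passed at 0.51 (SE 0.132, adjusted p = 0.00938). Junb alone had a fold near 0, at 3132, 4201 and 2905 CPM against 3390, 3221 and 2782 CPM (0.03, SE 0.144, adjusted p = 0.971), and was higher in Fcrls-only macrophages in 2 of 3 mice.

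**Figure D3:**
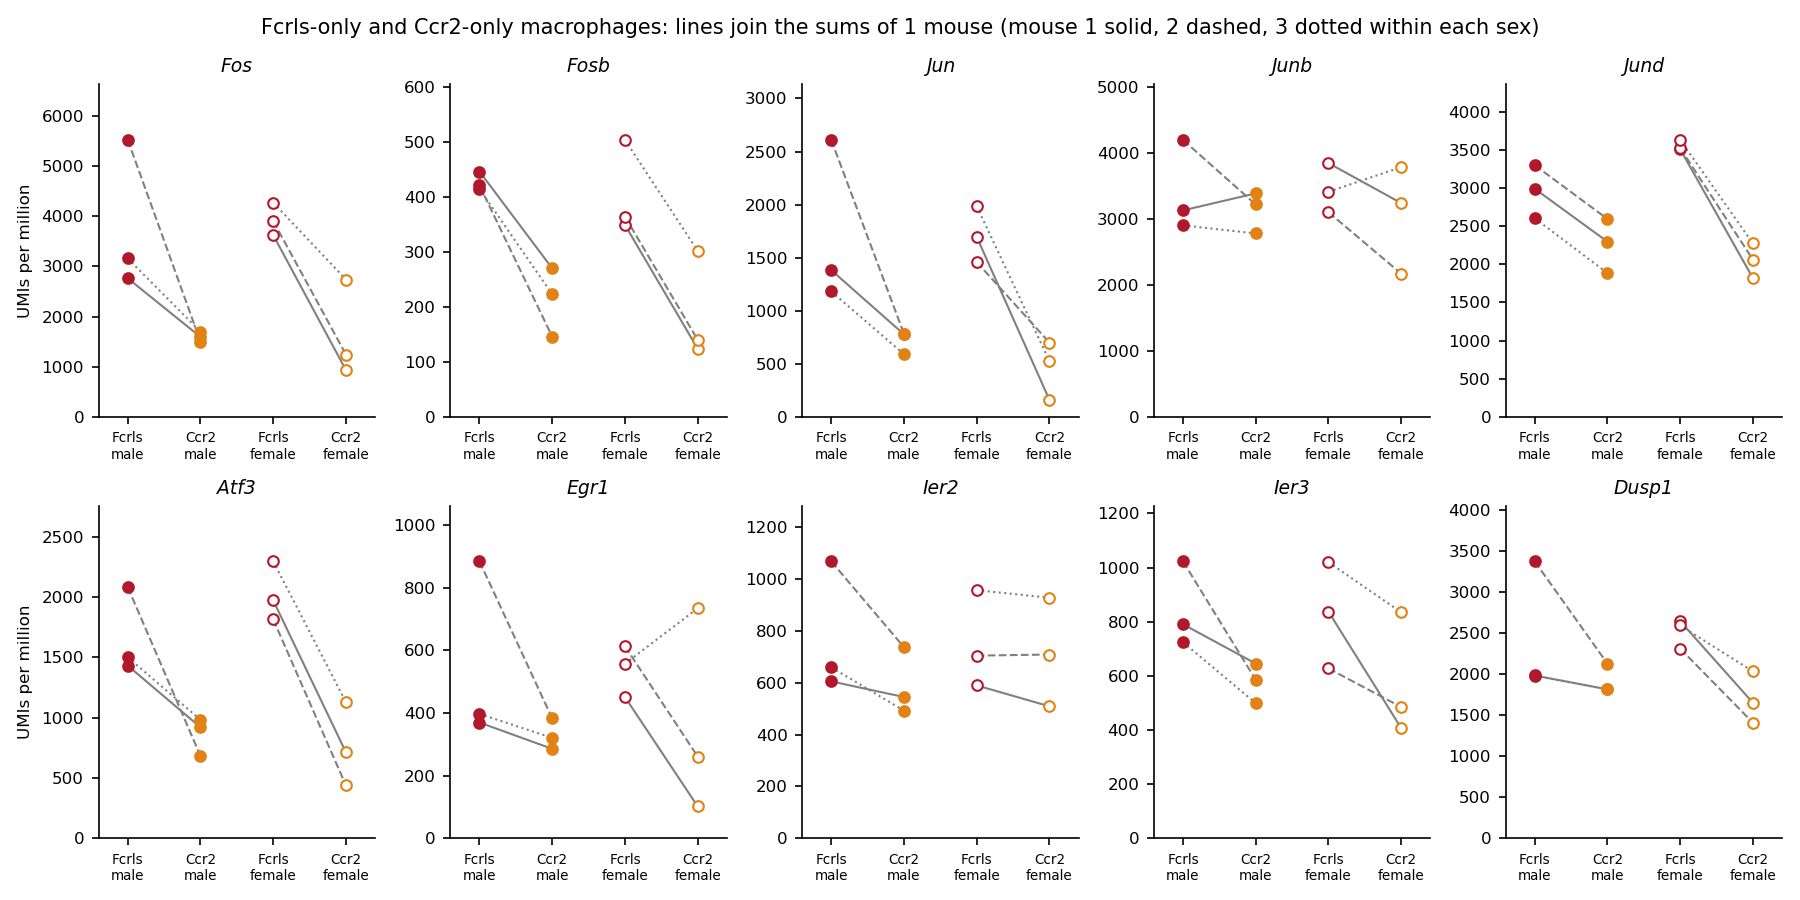
CPM of each gene in Fcrls-only (red) and Ccr2-only (orange) macrophages, with filled points for male and open points for female mice and a line joining both sums of 1 mouse. Lines fall from Fcrls-only to Ccr2-only in all 6 mice for Fos, Fosb, Jun, Jund, Atf3, Ier3 and Dusp1, and not for Junb, Egr1 or Ier2. Egr1 rises in female mouse 3 (557 to 734 CPM) and Ier2 in female mouse 2 (704 to 709 CPM).

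Female mice had calls for 3 of the 10 genes (Fosb, Jund and Dusp1), where 8.08% of 3838 genes were called and 3.80% were called higher in Fcrls-only macrophages. The difference between the sexes in the effect of the subset was tested as an interaction over 12 sums. That fit had no mouse term, although both subset sums of a mouse are paired, and a paired fit was not run. The unpaired fit called 0 of 6159 genes with edgeR, and 256 had an unadjusted p under 0.05. Among the 10 genes only Jund was one of these, with a difference between the folds of 0.49 (SE 0.171, adjusted p = 0.9999). The unpaired fit thus called no sex difference in the subset effect. Without the pairing and with 3 mice per sex, it cannot show that there is none. When subsets were scaled by total UMIs, 60.8% of called genes were higher in Fcrls-only macrophages in place of 43.4%. The median log2 fold of all genes moved from 0.02 to 0.13. In that setting 4 of the 10 were called higher, where 340 of 5879 genes were called higher and 219 lower. The list of unused macrophage markers was at 2026 to 2316 CPM in Fcrls-only and 1385 to 1814 CPM in Ccr2-only macrophages, and fibroblast markers at 55.5 to 146 and 31.7 to 57.1 CPM. Monocyte markers (Plac8 and Ly6c2) were near 0 in both, at no more than 7.31 and 16.6 CPM. The part of the first 2 lists in the result was not tested.

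Around the 10 genes, the remaining AP-1 list gave 0 higher and 2 lower of 10 tested, Batf at -0.77 (SE 0.245, adjusted p = 0.0430) and Atf4 at -0.55 (SE 0.171, adjusted p = 0.0410). The other immediate early genes gave 3 higher and 3 lower of 22. Of all 5879 genes tested, 242 were called higher in Fcrls-only macrophages and 316 lower. Rhob was higher in Fcrls-only macrophages by 1.18 (SE 0.260, adjusted p = 0.0287). Egr3, a relative of Egr1, had the opposite direction at -2.09 (SE 0.622, adjusted p = 0.0384), from 0, 19 and 9 UMIs in Fcrls-only and 6, 5 and 14 UMIs in Ccr2-only macrophages. Cyr61, a matricellular protein, was at 28, 35 and 52 UMIs against 0, 0 and 4 (2.64, SE 0.735, adjusted p = 0.0300). None of the 13 upstream signalling genes tested was called with edgeR's test.

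Macrophages of the female and male mice, compared on the larger matrix, did not differ in any of the 10 genes past the threshold, and 5 of 8070 genes were called (0.0620%, 0.0248% higher in females; 451 had an unadjusted p under 0.05, and DESeq2 called 8). Fos was at 2609, 3314 and 3924 CPM in females against 2386, 4149 and 2535 CPM in males (log2 fold 0.12, SE 0.293, adjusted p = 0.984). Jund, with the smallest adjusted p of the 10, was at 2917, 3109 and 3344 CPM against 2688, 3015 and 2362 CPM (0.23, SE 0.0903, adjusted p = 0.835). The ranges of the sexes overlapped for each of the 10 genes. Male mouse 2 again decided the outcome: without it, 85 genes were called, among them Jun at 0.47 and Atf3 at 0.42 (both adjusted p = 0.0460).

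Within macrophages the 10 genes varied together from cell to cell. A macrophage at the 90th percentile of its mouse devoted 5.47, 5.36 and 4.85 times the share of UMIs to them that a macrophage at the 10th percentile did (3.09% against 0.565% in mouse 1). Each of 1392 macrophages was thinned to 3000 UMIs, and Pearson correlations of log UMIs were taken within each mouse and averaged. All 45 pairs of the 10 genes were positive in each of the 3 mice, with a mean r of 0.339 (0.364, 0.343 and 0.311 in mouse 1, 2 and 3). Over all pairs of the 1558 genes with a UMI in 20% or more of these macrophages, the median r was 0.00139, the 95th percentile 0.0660 and the 99th percentile 0.108. Of the 45 pairs, 45 lay over the former and 44 over the latter. The 10 genes had a UMI in 50.9% (Fosb) to 97.1% (Jund) of these macrophages, and the background was not matched for that. These correlations are descriptions over cells that share a lane, a mouse, depth and free RNA, and carry no p.

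Fos and Jun formed the strongest pair at 0.676 (0.650, 0.723 and 0.656 by mouse), followed by Fos and Dusp1 at 0.584. Fos had the highest mean correlation with the other 9 genes (0.441), then Dusp1 (0.412), Jun (0.384), Atf3 (0.381) and Egr1 (0.379). Junb leaned to Dusp1 (0.494) more than to Jun (0.242), although both are Jun proteins. Fosb and Ier3 stood at the edge with means of 0.208 and 0.222, and the weakest pair was Fosb and Ier2 at 0.102. The best partner of Fosb was Jund at 0.310, not Fos at 0.253. Fosb, the only 1 of the 10 genes called in each of the 10 alternatives between the subsets, thus had the lowest mean correlation with the rest.

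**Figure D4:**
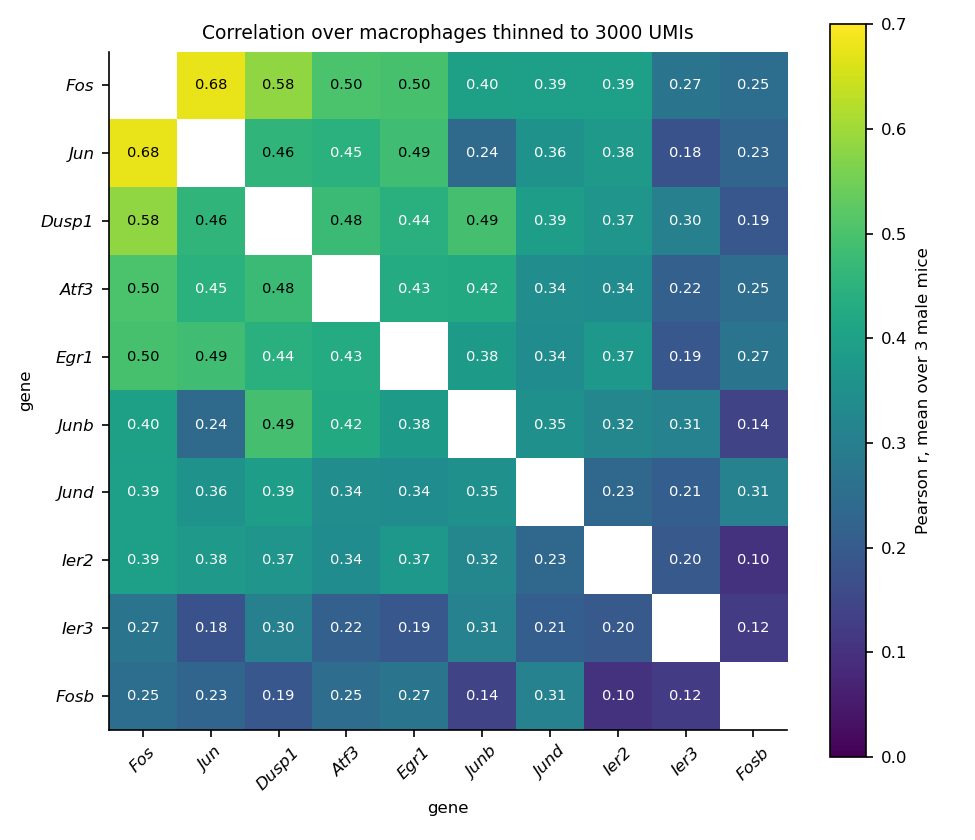
Pearson r of log UMIs between each pair of the 10 genes over 1392 macrophages thinned to 3000 UMIs, mean of 3 male mice (colour and number); rows and columns run from Fos and Jun to Ier3 and Fosb, and the diagonal is left blank. Fos, Jun, Dusp1, Atf3 and Egr1 form the bright corner with r of 0.431 to 0.676, and the Ier3 and Fosb rows are darkest.

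The genes nearest to each member, out of all 1558, were largely other members. Dusp1 and Fos were each among the 5 nearest of 8 of the 10 genes, Atf3 and Jun of 6, and Zfp36, which was no member, of 5. Jun had Rhob (0.502) and Klf6 (0.479) among its 5 nearest, and Fos had Rhob (0.522) and Zfp36 (0.521). For Junb the list was different, with Nfkbia (0.459), Zfp36 (0.454), the chemokine Cxcl2 (0.448) and Cebpb (0.443) beside Dusp1. Ier3 likewise had Zfp36 (0.292) and Nfkbia (0.243), and Fosb had Klf2 (0.267). The mean r of the 45 pairs was 0.356 over 633 Fcrls-only and 0.302 over 146 Ccr2-only macrophages. In Fcrls-only macrophages all 45 pairs were positive in every mouse, whereas in Ccr2-only macrophages 37 were, and 43 had a positive mean. The negative means there were those of Fosb with Ier3 (-0.136) and with Junb (-0.0392), and Jun with Jund stood at 0.0630 against 0.425 in Fcrls-only macrophages. These subset values rest on fewer cells, and their difference was not tested. The summed 10 genes ran slightly against the percent of mitochondrial UMIs (r of -0.263, -0.343 and -0.199 by mouse) and against log total UMIs (-0.163, -0.132 and -0.269), and the part of RNA quality or depth in the pattern was not tested.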

How the data were processed

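CD45+ cells were profiled in 1 lane, with 6 hashtags, each taken as 1 mouse (3 male and 3 female). Per the labels, the authors aligned reads to mm10 with Cell Ranger (3.1.0 in the matrix header) and used Seurat. The deposited values are raw UMI counts, not normalized. The deposited matrix holds 2668 cells and 23403638 UMIs (549 to 37058 per cell, median 8283.5). HTODemux (Seurat 5.3.0) on the larger matrix, then the study's filters (over 200 and under 5000 genes, under 5% mitochondrial UMIs), gave the same 2668 cells under the 3 male hashtags and 1073 under the female ones. It removed 269 hashtag doublets; no other doublet caller was run, so doublets within 1 mouse remain.

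UMIs were summed per mouse and cell group and tested with edgeR 4.0.16 (filterByExpr, TMM, quasi-likelihood test, Benjamini-Hochberg, adjusted p under 0.05) in R 4.3.3; DESeq2 1.42.0, other scalings and filters, stricter marker rules, female mice and left-out mice were alternatives. Scaling by total UMIs and the grouping of neutrophils with Cd3 UMIs were chosen after seeing the data. The members and gene lists were chosen with earlier results of these data known. The text names up to 3 called genes of each list with the largest folds, and further genes called lower in macrophages. Replicates are mice, taken from the hashtags. Both sums of a mouse come from the same animal, so mouse numbers pair the groups. Between types, deviations of same-mouse sums had mean correlations of 0.00526 to 0.0387 by mouse, with a lowest single value of -0.0457. Between subsets the correlations were 0.0460 to 0.200. Intervals and floors (3 UMIs) cover counting error only.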

Additional observations from a re-analysis of the deposited data

How the results depend on the processing

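Of the 10 genes' log2 folds between macrophages and other types, all kept their direction under each alternative except Ier2 against neutrophils, which ran from -0.555 to 0.0215 with 1 mouse left out (the latter without mouse 3) and was 0.20 under scaling by total UMIs and 0.22 in female mice. Junb between the subsets ran from -0.131 (without mouse 2) to 0.128 with 1 mouse left out, and was -0.0297 when cells with both genes were divided by the larger count. Between the sexes, folds near 0 turned sign: Fosb was -0.0038 without a filter, and leaving out 1 mouse gave -0.0148 to 0.432 for Fos, -0.17 to 0.11 for Fosb, -0.16 to 0.47 for Jun, -0.0424 to 0.260 for Junb, -0.0456 to 0.514 for Egr1, -0.0587 to 0.227 for Ier3 and -0.0656 to 0.326 for Dusp1. Genes called without a filter were 5407 against neutrophils, 4819 against B cells and 43 between the sexes; more genes were tested there. Female mice gave 1573, 1613 and 1204 genes called for neutrophils, B cells and T cells and 310 for the subsets. DESeq2 called 8 genes between the sexes. Leaving out 1 mouse gave 329 to 389 genes for the subsets, and 5 to 85 genes and 0 to 2 of the 10 for the sexes. With the mouse as replicate block 5 of the 10 were called between the subsets, and beyond the genes named there it changed no other call of the 10. The mean correlation was 0.299 at 2000 UMIs, 0.311 by Spearman, 0.401 without thinning and 0.302 in Ccr2-only macrophages. The share of macrophages with a UMI, averaged over the 10 genes, was 71.0% at 2000 UMIs, 56.5% at 1000 and 89.4% as deposited, so depth sets such shares. The cause of the other changes was not tested. With 12 T cells in mouse 2, low T cell levels rest on few UMIs.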
